A study of Ovis aries with 3 samples.

Results

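A set of 34 transcripts had their highest level in the duodenum of small-tailed Han sheep, a lower level in the cecum and the lowest level in the proximal colon. The 34 members were chosen by measured values. Each had at least 10 RPKM in the duodenum, at least a 2-fold higher RPKM in the duodenum than in the cecum, at least a 2-fold higher RPKM in the cecum than in the colon, and more than 0.5 RPKM in the cecum. RPKM is the number of reads of a transcript scaled by exon length and by the read total given for the library. Levels of different transcripts can thus be set side by side. The rule was applied to the 68818 transcripts of the files whose RefSeq accession begins with XM_ or NM_. It was met by 109 of these, and keeping 1 transcript of those that share an exon left 38. A further 4 of these were left out by the rule, among them FABP1. Values of all 3 regions were used by the rule, so the members' levels and ratios are a description and no test is given.

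RNA of the mucosal epithelium was sequenced with reads of 100 bp as 1 library for each of the duodenum, cecum and proximal colon. Each library was a pool of 3 ewes of the small-tailed Han breed aged 11 months, with no treatment named in the labels. The 3 regions therefore come from the same breed and age, and no difference between them has a replicate check within these libraries. The study also used Texel sheep libraries of the same regions, which were not analysed here. Intervals below are exact 95% intervals that cover the sampling of reads only, and not the variation between animals or tissue pieces. They are too narrow where a read was counted in more than 1 exon.

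The duodenum is the first stretch of the small intestine, where bile and pancreatic juice meet the food and where absorption of fat, sugar and peptides begins. The cecum and colon follow the small intestine and hold the microbes that ferment fibre. Many genes of digestion and absorption are known to be active in the small intestine and nearly silent beyond it. A transcript with an intermediate level in the cecum can differ from that on/off pattern, but not all members did. In 11 members the level was at least 10-fold lower in the cecum than in the duodenum. Among the products that could be named here are complement proteins, which mark and lyse microbes in body fluids and are also made by gut epithelium, and an enzyme that oxidises aromatic compounds from food.

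The read totals of the file headers, in units of 1000000 reads, were between 46.3 (cecum) and 53.8 (colon). They are below the numbers of clean reads that the study reports for the same regions. With each exon counted once, the members held 1.43%, 0.368% and 0.0594% of exon reads in the duodenum, cecum and colon. Markers of gut epithelium summed to 2354, 3321 and 2865 RPKM in the duodenum, cecum and colon over 6 genes, so the labelled tissue was present in all regions. The lining was not the only tissue sampled. Smooth muscle markers summed to 1028, 5041 and 3537 RPKM in the same order, and 6 of 6 were at least 2-fold higher in the cecum than in the duodenum. Fibroblast markers summed to 335, 1154 and 591 RPKM, with 3 of 4 at least 2-fold higher in the cecum. Plasma cell markers summed to 6875, 3851 and 797 RPKM, almost all of it JCHAIN. MZB1 was also lowest in the colon, whereas POU2AF1 (33.3, 27.3 and 49.7 RPKM) and CD79A (30.1, 22.2 and 35.9 RPKM) were highest there, and 4 of 4 B cell markers were at least 2-fold higher in the colon than in the cecum. The sum over T and natural killer cell markers was 259, 172 and 147 RPKM. The sum over enteroendocrine cell markers was 851, 230 and 254 RPKM. Of the 3 pancreatic acinar markers found and the 1 red blood cell marker found, 0 reached 1 RPKM in any region. The part of these cell types in the members' levels was not tested, and in bulk tissue fewer cells of a type and less RNA per cell cannot be told apart.

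Over the 34 members the median level was 29.5, 4.35 and 1.63 RPKM in the duodenum, cecum and colon. The first step, from duodenum to cecum, had a median ratio of 5.61-fold, and the second step, from cecum to colon, a median of 2.61-fold. From duodenum to colon the median was 21.0-fold, with a range from 5.92-fold to 3383-fold. The first step was the larger in 24 members and the second in 10. Transcripts past both thresholds were few. Of 7780 transcripts with at least 10 RPKM in the duodenum, 1 kept for each shared exon, 528 (6.79%) were at least 2-fold lower at the first step, 110 (1.41%) at the second and 45 (0.578%) at both. The first step alone was passed by 483 (6.21%) and the second alone by 65 (0.835%). The 45 hold 31 of the members, with the others at or below 0.5 RPKM in the cecum or left out by the rule, and 3 members stand in the 7780 by another transcript that shares an exon. The rule used the same contrasts, so the shares are printed only as the frequency of the pattern.

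**Figure D1:**
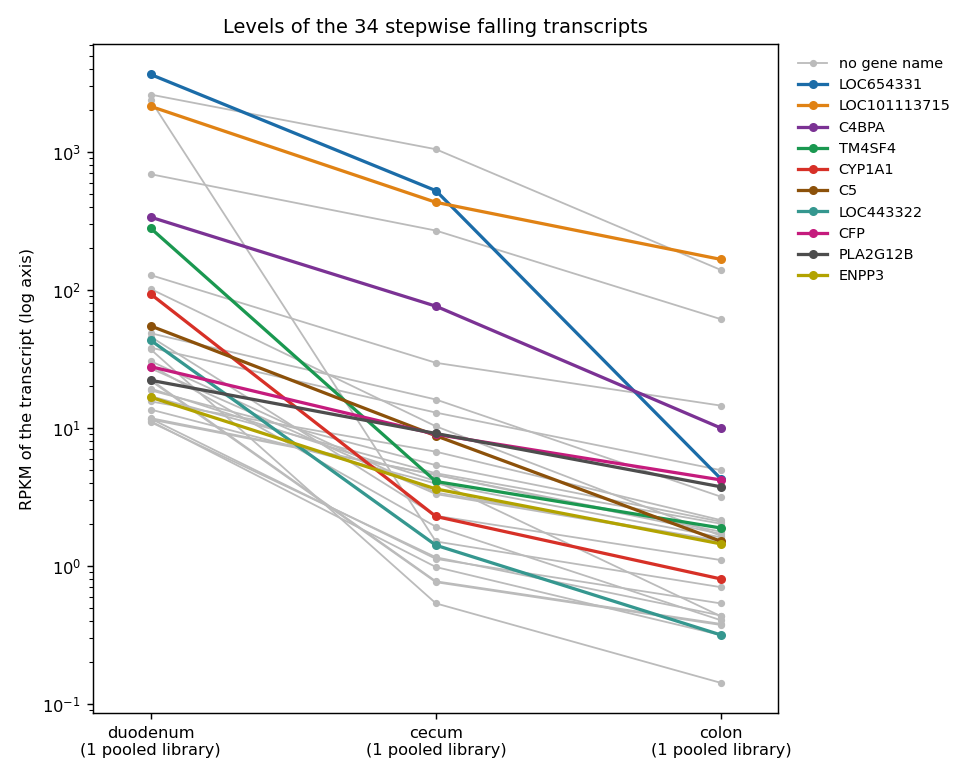
RPKM (log axis) of the 34 members in the duodenum, cecum and colon, 1 pooled library each. Each line is a transcript, with the 10 that carry a gene name in colour and the others in grey. The lines spread over more than 2 orders of magnitude in every region, and LOC654331 crosses several others between cecum (524 RPKM) and colon (4.26 RPKM).

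**Figure D2:**
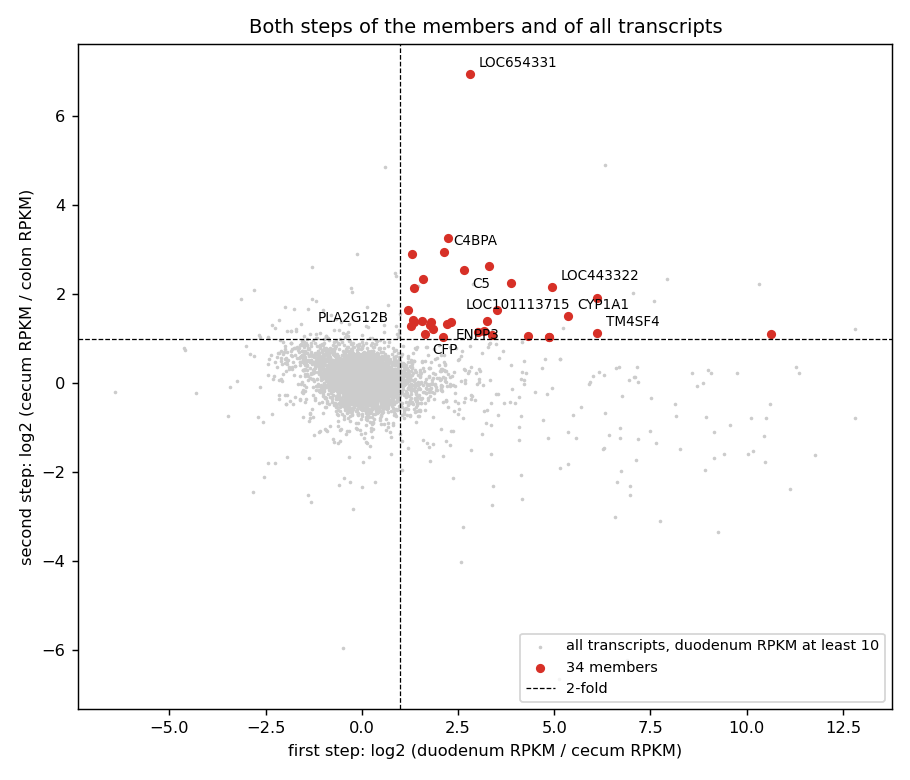
First step (log2 ratio of duodenum over cecum RPKM) against second step (log2 ratio of cecum over colon RPKM) for the 34 members in red and, in grey, for the 7757 transcripts with at least 10 RPKM in the duodenum and reads in all regions. Dashed lines mark 2-fold. The members fill the upper right corner by their definition, and grey points there are transcripts at or below 0.5 RPKM in the cecum or left out by the rule.

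Gene names were available for few members. The accession of 9 members is paired with a symbol in the RefSeq gene table of the sheep assembly ARS-UI_Ramb_v3.0, and 1 more, a short transcript of ENPP3, shares an exon with a named transcript. The other 24 are given by accession only. The 34 members lie at 29 separate positions, since 9 of them fall into 4 groups whose exons overlap in part. These groups are counted as separate members by the rule but are not independent measurements.

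Complement was the named function with the most members, with 3. C4BPA codes for the alpha chain of C4b-binding protein, an inhibitor that keeps complement from depositing on host surfaces. Its level was 337, 76.3 and 9.97 RPKM in the duodenum, cecum and colon. The second step was the larger, with a log2 ratio of 2.94 (interval 2.85 to 3.02) against 2.14 (2.11 to 2.18) for the first. All 12 exons of C4BPA were at least 2-fold lower at each step, and all 10 transcripts of its locus met the values of the rule.

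C5, the component that is split into an anaphylatoxin and the fragment that starts the membrane attack complex, had 54.9, 8.78 and 1.51 RPKM in the same order of regions. The steps were of like size, with log2 ratios of 2.64 (2.58 to 2.71) and 2.54 (2.39 to 2.69), and their intervals overlap. Each of its 41 exons was at least 2-fold lower at each step, the longest run of exons among the members. CFP codes for properdin, which stabilises the convertase of the alternative pathway and is made mainly by white blood cells. Its values were lower and its steps smaller, with 27.9, 8.997 and 4.20 RPKM in the duodenum, cecum and colon. The lower interval bound of its second step, a log2 ratio of 1.00, lay at the 2-fold threshold.

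Complement genes with a symbol varied in order. The list was added after the values were seen. Of 13 genes with at least 1 RPKM in a region, 5 were at least 2-fold lower in the cecum than in the duodenum and 1 was higher, against 6.45% lower and 11.2% higher among 5723 named genes. At the second step 4 were at least 2-fold lower, against 3.7%. Both counts include the 3 members, which the rule placed past each threshold, so they are not comparable with these shares. The other genes past the first step were C2 and CFD, and the other past the second was C6. Both steps were passed by the 3 members, against 0.699% of all named genes, a count that the choice of members fixes. CFI, the protease that inactivates deposited complement, and C7, a subunit of the membrane attack complex, had the order of the members with smaller steps. CFI was at 234, 143 and 75.9 RPKM and C7 at 124, 77.1 and 43.6 RPKM. C2, the protease of the classical pathway convertase, was at 79.4, 18.6 and 17.1 RPKM and so had the first step only. CFB, its counterpart in the alternative pathway, was at 656, 341 and 358 RPKM, and CFD, which activates CFB, was at 284, 131 and 196 RPKM. C6, another subunit of that complex, had its highest level in the cecum, with 5.37, 8.66 and 2.92 RPKM. The classical pathway protease C1S was also highest in the cecum, with 91.3, 197 and 128 RPKM.

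**Figure D3:**
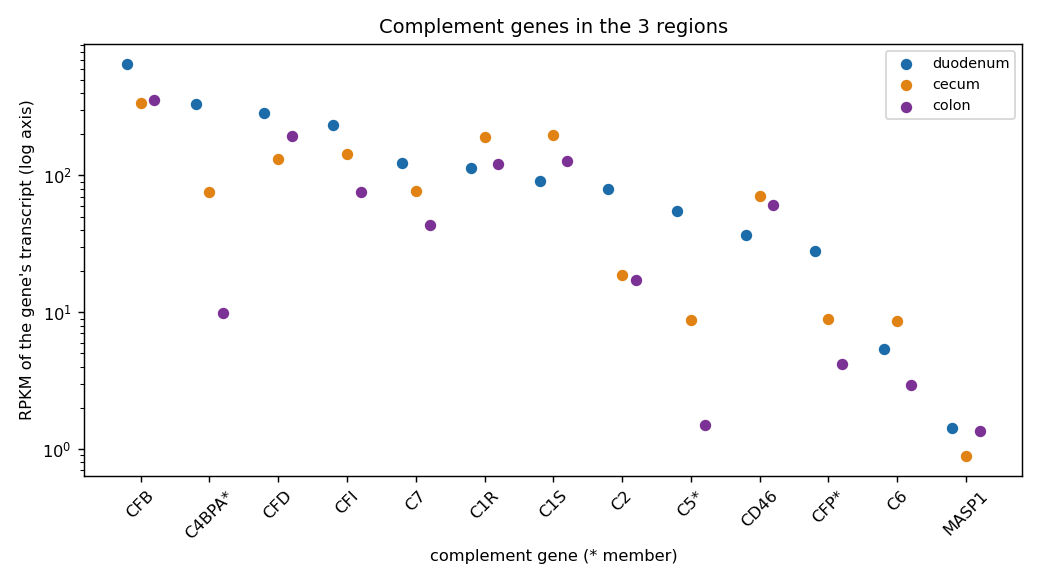
RPKM (log axis) of 13 complement genes in the duodenum, cecum and colon, 1 pooled library each, ordered by the level in the duodenum, with members marked by an asterisk. C4BPA is drawn by a neighbouring transcript of its locus (335 RPKM in the duodenum). C4BPA, C5 and CFP are the only genes drawn with at least a 2-fold difference at each step, while C1R, C1S, CD46 and C6 are highest in the cecum.

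The member with the highest level in the duodenum was LOC654331, a gene with a locus number only in RefSeq, at 3648 RPKM. Its level was 524 RPKM in the cecum and 4.26 in the colon. It had the largest second step of the members, 123-fold, with a log2 ratio of 6.95 (6.74 to 7.17), after a first step of 6.96-fold. Its first step was between 4.61-fold and 7.43-fold in each of its 7 exons. The quantitative PCR that the study reports for LOC654331 was also highest in the duodenum and lowest in the colon.

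LOC101113715, also without a gene name, had 2143, 432 and 166 RPKM. It was the member with the highest level in the colon. Its steps of 4.96-fold and 2.60-fold lay nearest to the members' medians among 7757 transcripts with reads in all regions. Its 2 exons gave almost equal ratios, 4.89-fold and 4.98-fold at the first step and 2.60-fold in both at the second.

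XM_012103068 was the second most abundant member, with 2606, 1047 and 139 RPKM in the duodenum, cecum and colon, and it had the most reads in every region (451792, 165321 and 25564). The second step, 7.52-fold, was larger than the first, 2.49-fold. All 25 exons were lower at both steps, but 19 of them passed 2-fold at the first. Its exons repeat in length, with 5 of 28 bp, 4 of 31 bp, 3 of 34 bp and 3 of 325 bp. The RPKM of exons of equal length differed widely in the duodenum, from 313 to 1975 for those of 325 bp. Whether these exons are alike in sequence was not tested, and the value of a single exon is uncertain if reads were split between copies.

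XM_012148943 had the steepest first step, from 2374 RPKM in the duodenum to 1.51 in the cecum, or 1576-fold. Its cecum and colon levels rested on 61.4 and 33.3 reads. The second step, to 0.702 RPKM in the colon, had a log2 ratio of 1.10 with an interval from 0.47 to 1.76, so that a step under 2-fold lies within the sampling of reads. Exon 2 had the opposite order, with 17.7 reads in the colon against 11.2 in the cecum.

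TM4SF4, a tetraspan membrane protein of liver and gut epithelium, had a like pattern, with 281, 4.10 and 1.88 RPKM. The first step was 68.6-fold and all 5 exons gave between 56.6-fold and 74.1-fold. The log2 ratio of the second step was 1.12 (0.84 to 1.40). Its RefSeq neighbours TM4SF1 and TM4SF18 belong to the same family and had their highest level in the cecum. TM4SF1 was at 8.97, 17.6 and 9.68 RPKM, and TM4SF18 at 3.83, 7.68 and 4.18 RPKM.

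CYP1A1, a cytochrome enzyme that oxidises aromatic compounds and is induced through the aryl hydrocarbon receptor, had 93.7, 2.29 and 0.805 RPKM in the duodenum, cecum and colon. The log2 ratios were 5.36 (5.17 to 5.55) at the first step and 1.51 (1.16 to 1.86) at the second. All 10 exons were lower at both steps, with first steps between 21.5-fold and 63.4-fold. An exon of 4 bp carried the highest exon value, 3080 RPKM in the duodenum, a value scaled by that very short length.

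Other genes of xenobiotic metabolism mostly had the first step alone. Of 35 genes of xenobiotic metabolism listed, 12 matched an accession and 11 of these reached 1 RPKM in a region. Of the 11, 9 were at least 2-fold lower in the cecum, CYP1A1 among them by the rule, and 0 were higher. Among all named genes the shares were 6.45% and 11.2%. Both steps were passed by 2, CYP1A1 and CYP2C19, and the latter rested on 1.75 RPKM in the duodenum and 0 reads in the colon. GSTA1, a glutathione transferase, was higher in the colon than in the cecum, with 814, 10.4 and 28.5 RPKM. ABCG2, an exporter of drugs and food toxins, was at 35.2, 5.94 and 3.63 RPKM, a second step of 1.64-fold. CES2, a carboxylesterase, was at 229, 36.2 and 48.8 RPKM.

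**Figure D4:**
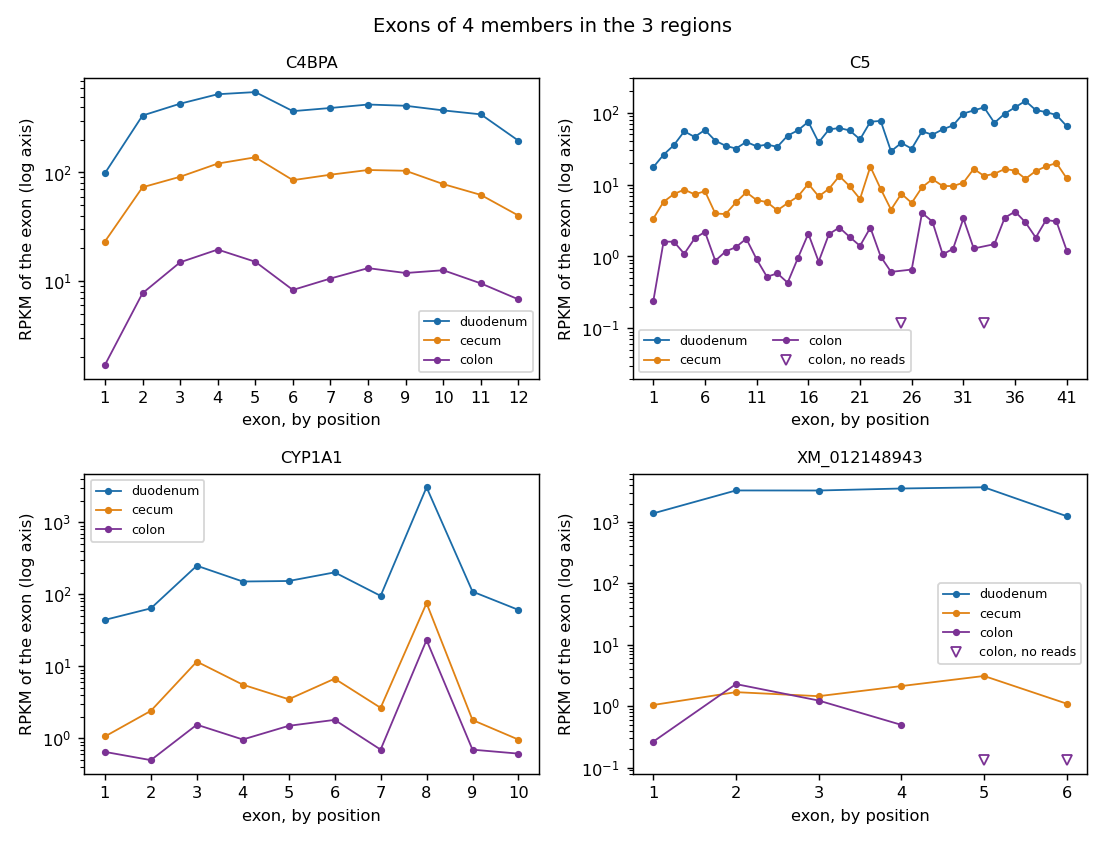
RPKM of each exon (log axis) by its order along the transcript for C4BPA, C5, CYP1A1 and XM_012148943 in the duodenum, cecum and colon. Open triangles at the bottom mark exons without reads in the colon. The lines of C4BPA, C5 and CYP1A1 stay apart along their length, whereas those of cecum and colon cross in XM_012148943.

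PLA2G12B, a secreted phospholipase relative without catalytic activity that takes part in lipoprotein export, was the member with the smallest ratio between duodenum and colon, 5.92-fold. Its levels were 22.2, 9.13 and 3.74 RPKM. The steps of 2.43-fold and 2.44-fold were nearly equal, and each of its 4 exons passed 2-fold at both. Most lipid genes were unlike it. Of 34 lipid genes listed, 19 matched an accession and 17 of these reached 1 RPKM in a region. Of the 17, 13 were at least 2-fold lower in the cecum than in the duodenum, against 6.45% of all named genes. Only 2 also passed the second step, PLA2G12B and FABP1, both of which met the values of the rule. At the second step 6 were at least 2-fold higher in the colon than in the cecum, against 2.87% of all named genes. Of these 6, ABCG5 had 1 read in the colon and APOC3 had 5, both against 0 reads in the cecum, so the direction of ABCG5 was not detectable at this depth. APOA4, a chylomicron protein, was at 308, 0.197 and 0.272 RPKM, and FABP2, the intestinal fatty acid carrier, at 1313, 0.503 and 0.427 RPKM.

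ENPP3 is a cell surface enzyme that splits nucleotides outside the cell. Its member was a transcript of 3 exons, with 16.7, 3.62 and 1.44 RPKM and steps of 4.62-fold and 2.50-fold. The transcript of 25 exons listed for ENPP3 was more abundant, at 102, 18.6 and 10.7 RPKM. With a second step of 1.74-fold that longer transcript did not meet the rule, so membership of ENPP3 rests on its short form. Of 23 brush border enzymes listed, 10 matched an accession and reached 1 RPKM in a region. Of the 10, 5 were at least 2-fold lower in the cecum, ENPP3 among them, and 2 were higher. Among all named genes the shares were 6.45% and 11.2%. MEP1B, a metalloprotease, was at 49.6, 18.7 and 21.7 RPKM.

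The remaining lists are small, and only their genes with a matched accession are counted. Their counts stand against 6.45% lower and 11.2% higher at the first step and 0.699% lower at both among all named genes. Of 4 sugar and peptide transporters, 3 were at least 2-fold lower in the cecum and 2 at both steps. Those at both steps rested on few reads, 2 and 0 in the cecum and colon for the glucose carrier SLC2A2, and 17.3 and 3.99 for the peptide carrier SLC15A1. The second step of SLC2A2 was not detectable at this depth. Among 5 amino acid transporters, 2 were lower at the first step, 1 was higher, and SLC7A9 passed both with 48.5, 0.369 and 0.0909 RPKM. Of 7 genes of ion, mineral and vitamin handling, 2 were lower and 2 higher in the cecum, with 0 at both steps. The 5 bile acid genes had 3 lower and 1 higher, with 1 at both steps, NR0B2. Of 8 intestinal transcription factors, 1 was lower and 5 were higher in the cecum, and of 5 genes of mucosal defence 1 was lower and 2 were higher. Neither list had a gene with both steps down.

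LOC443322 had 43.3, 1.41 and 0.316 RPKM in the duodenum, cecum and colon. The colon value rested on 7.62 reads, the fewest of any member there. The log2 ratio of its second step was 2.16, with an interval from 0.91 to 3.41. RefSeq places it between LOC443320 and LYZ, the gene of lysozyme, which cleaves bacterial cell walls. LYZ itself was at 23.8, 29.8 and 11.98 RPKM. A further gene of that stretch, LOC101103222, was at 626, 4357 and 1026 RPKM, and so was highest in the cecum. Another member, XM_012174592, lies 20292 bp from LOC443322 in the positions of the files. It had 102, 10.3 and 1.65 RPKM, and all 4 exons passed 2-fold at both steps, with ratios of 9.90-fold and 6.23-fold over the whole.

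Members lay near each other at a few further positions. XM_012173006 ends 7551 bp before the start of C4BPA, and XM_012187911 starts 44067 bp after its end. The files give positions without a chromosome or genome build, and RefSeq lists C4BPB, the beta chain of the same inhibitor, directly before C4BPA. XM_012173006 was at 19.3, 4.12 and 0.431 RPKM, with a second step of 9.55-fold, the second largest of the members. XM_012187911 was at 28.4, 1.93 and 0.404 RPKM. Its exons are numbered up to 14, but only 6 had reads in any region. A single exon carried 69.9% of its reads in the duodenum, and reads covered 24.6% of the length of the 6 in the colon. XM_004017851 and XM_012098693, which overlap, end 5302 and 5279 bp before CYP1A1. They had 22.4 and 22.1 RPKM in the duodenum, 0.775 and 0.763 in the cecum and 0.380 and 0.374 in the colon. Only the exons numbered 6 and 7 of each had reads in any region, so their levels describe a part of each transcript. Reads covered 49.9% and 51.2% of the length of these exons in the duodenum.

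RefSeq neighbours of the named members were looked up as well. Of 60 RefSeq neighbours, 3 on each side of each named member, 27 could be matched to values and 25 of these had at least 1 RPKM in a region. At the first step 0 of the 25 were at least 2-fold lower in the cecum, against 6.45% of all named genes, so that 0 of so few is near the background. The members that lie near C4BPA, CYP1A1 and LOC443322 in the files could not be matched to a RefSeq gene and are not among the 25. The neighbours of 1 gene are not independent of each other, and the rest were not matched to a transcript of the files.

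XM_012099255 lies over the gene of CCR9, the receptor through which lymphocytes reach the small intestine. Its first exon, with 93.9% of its reads in the duodenum, contains the single exon of CCR9, so the reads of both cannot be told apart. The member had 11.7, 1.13 and 0.535 RPKM. CCR9 itself had 19.2, 1.51 and 0.916 RPKM, and its second step of 1.65-fold kept it outside the rule. CCL25, the ligand of CCR9 made by small intestinal epithelium, had 257, 1.63 and 2.12 RPKM, with a slightly higher level in the colon than in the cecum. Of 8 homing genes in a list added after the values were seen, 2 were at least 2-fold lower in the cecum, CCR9 and CCL25, and 0 passed both steps. CCR10, a receptor of plasma cells that make immunoglobulin A, had its larger step between cecum and colon, with 24.1, 15.1 and 4.48 RPKM. JCHAIN, which joins that immunoglobulin, was at 6626, 3659 and 663 RPKM, also with the larger ratio at the second step.

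Several abundant members without a name also had their larger step between cecum and colon. XM_012136634 was at 691, 269 and 61.3 RPKM, with ratios of 2.56-fold and 4.39-fold. Each of its 4 exons with at least 10 reads in the duodenum passed 2-fold at both steps, within 2.54-fold to 2.59-fold at the first. XM_004003233, of 23 exons, was at 48.6, 16.1 and 3.17 RPKM, with 3.02-fold and 5.07-fold. All 10 transcripts at its locus met the rule. XM_004017387 was at 15.6, 6.73 and 2.15 RPKM, with the smallest first step of the members, 2.31-fold. Over the 10 members with the larger second step the median level in the cecum was 12.6 RPKM, and over the 24 others it was 3.36 RPKM. This difference follows in part from the split, since both ratios use the cecum level.

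Most unnamed members had the larger step first. XM_012162114 was at 128, 29.7 and 14.5 RPKM, and its second step of 2.04-fold had a log2 interval of 0.95 to 1.11 around the threshold. XM_012097155 was at 38.2, 12.9 and 4.94 RPKM, with all 12 exons lower at each step. XM_012127682 was at 37.3, 0.536 and 0.142 RPKM, a first step of 69.5-fold that left 61.4 reads in the cecum and 18.9 in the colon. It was the member nearest to the cecum minimum. XM_012098053 was at 30.6, 3.41 and 1.52 RPKM, and XM_004014565 at 27.1, 3.32 and 1.49 RPKM. Their ratios were alike, 8.97-fold and 2.24-fold for the former and 8.15-fold and 2.23-fold for the latter.

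XM_012172261 was at 45.9, 2.31 and 1.10 RPKM, but its first exon of 38 bp held 50.9% of its reads in the duodenum. That exon had 535, 1 and 0 reads in the order of the gut. The other exons had first steps between 8.27-fold and 11.3-fold. It overlaps XM_012132997, the member with the lowest level in the duodenum, at 11.04, 1.16 and 0.437 RPKM. The overlapping members XM_012096601, XM_012155138 and XM_012173472 had between 13.6 and 18.8 RPKM in the duodenum, between 3.96 and 5.38 in the cecum and between 1.61 and 2.09 in the colon. XM_012128412 and XM_012103192, which also overlap, had 11.8 and 11.5 RPKM in the duodenum, 4.58 and 4.57 in the cecum and 1.77 and 1.71 in the colon. The last member, XM_012112376, was at 11.2, 0.983 and 0.316 RPKM.

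The size of the second step was less certain than that of the first. At the first step the lower interval bound was at least 2-fold in 34 of 34 members, and at the second in 19. In the colon 9 members had fewer than 30 reads and 11 were below 1 RPKM. Of the 34 second steps, 21 were under 3-fold. LOC654331, XM_012173006, C4BPA, XM_012103068, XM_012174592, C5 and XM_004003233 were the 7 members with a second step of at least 5-fold.

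**Figure D5:**
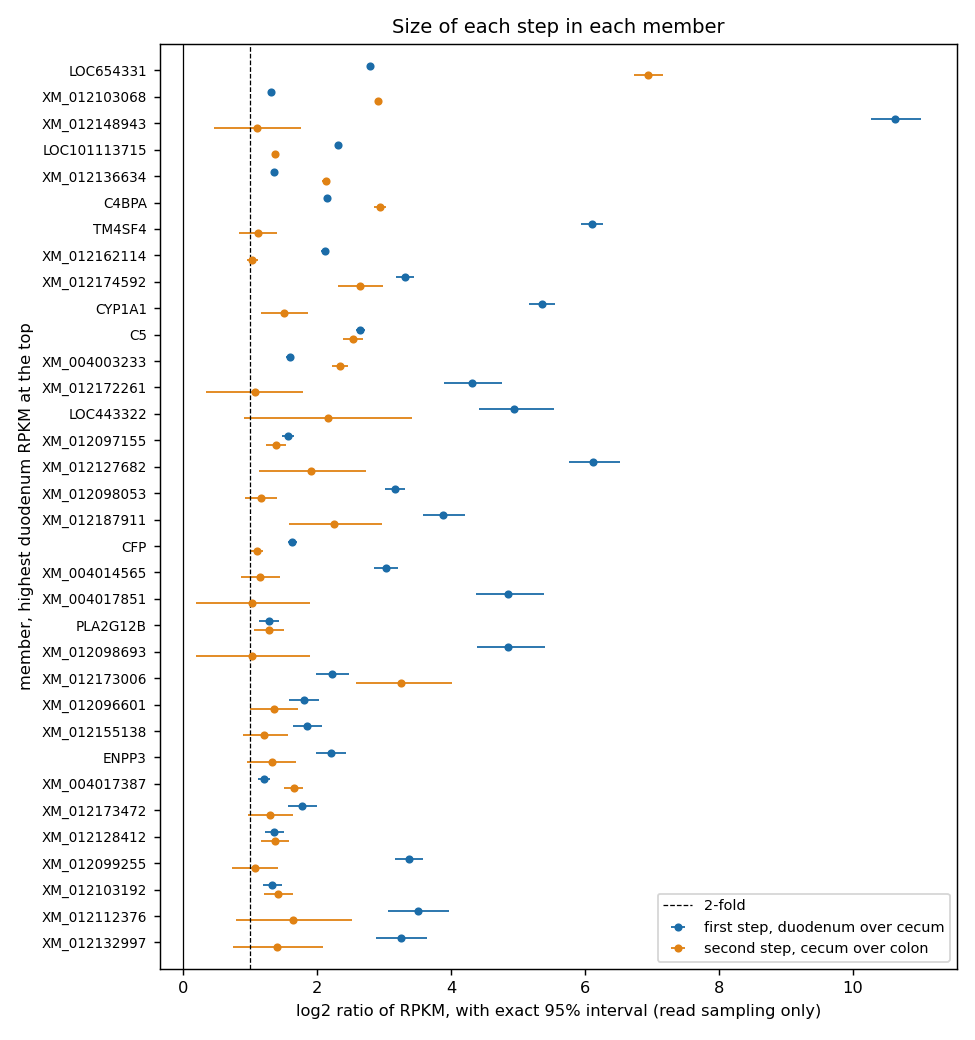
Log2 ratio of RPKM at the first step (blue) and the second step (orange) for each member, ordered by its level in the duodenum, with exact 95% intervals for the sampling of reads. The dashed line marks 2-fold. Every first-step interval lies above the line, and the second-step interval reaches below it in 15 members.

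Within the members the order of the regions held for most exons. Of 294 exons listed, 288 had at least 10 reads in the duodenum, and 273 of these were lower in the cecum than in the duodenum and lower again in the colon. Of the 288, 280 passed 2-fold at the first step and 233 at both. In 25 members every such exon followed the order, and in 11 every such exon passed 2-fold at both steps. Exons sum to the value used by the rule, so this describes how evenly the steps were spread. The median share of the length of a member's listed exons that reads covered was 99.0%, 96.9% and 91.4% in the duodenum, cecum and colon.

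Other transcripts of the same loci mostly had the same order of regions. Loci were joined only by exons of the same start, end and reads. By that joining a member was the only transcript of its locus in 10 cases, and 24 had further transcripts. The 10 include XM_004017851, XM_012098693, XM_012103192, XM_012128412 and XM_012172261, each of which overlaps another member in part. In 17 of the 24, every transcript of the locus met the values of the rule. Among noncoding transcripts, named XR_ or NR_, 1 met the same values, at 106, 24.9 and 12.3 RPKM, and it shares an exon with a member.

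In exons, length, transcripts per locus and naming, the members were compared with 414 transcripts that passed the first step only. These had at least 10 RPKM in the duodenum and more than 0.5 in the cecum. Exon length enters the RPKM of the rule and shared exons enter its joining, so these features are not independent of the choice of members. The members had a median of 6 exons against 9, and a median exon length in all of 1266.5 bp against 1974.5 bp. A locus with a single transcript, joined by identical exons only, was found for 29.4% of members and 20.05% of the others. Several of these members overlap another member in part, so no difference is read from these shares. A gene name by own accession was found for 26.5% and 34.1%. Over all 7780 transcripts with at least 10 RPKM in the duodenum the medians were 9 exons and 2102 bp. Only exons with reads in a region were counted and some members overlap in part, so these are descriptions.

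The thresholds cut through a continuous range. Just inside the duodenum minimum were XM_012132997, XM_012112376 and XM_012103192, and just outside DAPL1 at 9.77 RPKM, NR0B2 at 9.09 and TMEM150B at 8.81. At the first step the members nearest the threshold were XM_004017387, PLA2G12B and XM_012103068. SST, which codes for somatostatin, was just outside with 118, 59.0 and 20.2 RPKM, a first step of 1.997-fold. XM_004022769 (1.96-fold) and XM_012173533 (1.95-fold) followed. At the second step XM_004017851 and XM_012098693 (both 2.04-fold) and XM_012162114 were just inside. XM_004022910 with 1.96-fold, MLN, the gene of the gut hormone motilin, with 1.91-fold and XM_012153590 with 1.83-fold were just outside. MLN was at 102, 5.73 and 3.004 RPKM. The cecum minimum kept out XM_012168651 (0.376 RPKM), SDSL (0.373 RPKM) and SLC7A9 (0.369 RPKM), each with a second step of at least 2.51-fold.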

How the data were processed

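The tables the authors deposited, 1 for each region, list exons of annotated transcripts. Per the file headers each exon has an estimated count of reads, made by the authors before deposit and assigned to exons of every transcript, an RPKM and the percent covered by reads. The estimated counts are mostly not whole (87.8% to 88.3% of exon rows), and exons without reads are absent. The study's methods name Bowtie2 and RSEM, whereas the submitters' processing notes list BWA and Bowtie 0.12.2. The methods also name the sheep reference genome v4.0. The files name no build and no chromosome, and whether their positions are on that assembly was not checked, so positions are printed as deposited. The Texel libraries of the study were not analysed here.

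Exon reads were summed per transcript. The sum was divided by the length of the transcript's exons with reads in any region and by the read total of the file header, giving the RPKM used above. Exons without reads in every region are absent, so the RPKM of a transcript with such exons is higher than over its full length. The deposited exon RPKM was not used, and the deposited percent covered was averaged by exon length. Exact 95% Clopper-Pearson intervals of ratios treat reads as independent molecules. Reads summed over distinct exons exceeded the header total in every region, so a read may be counted in more than 1 exon. Where that happened the intervals are too narrow. No test was run, since each region has 1 library and the members were chosen on the same values. The rule and intervals were tested on simulated data. A symbol was used where a RefSeq accession matched (6816 genes). Listed genes and markers without a match are not counted, which does not mean that they had no reads. Python 3.11.15, matplotlib 3.10.9, scipy 1.17.1, pandas 2.3.3 and numpy 2.4.6 were used.

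The members and gene lists were chosen with earlier results of these data known. Named were the 25 members highest in the duodenum, those in a list, the largest and smallest ratios, the transcripts nearest each threshold and those nearest the median steps. The alternatives were 3 library scalings, the median or highest exon, 2 pseudocounts, exons of no other locus, and other thresholds. Promoter and protein sequences were not analysed here. Values of some listed genes are not reported here.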

Additional observations from a re-analysis of the deposited data

How the results depend on the processing

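No paired analysis was possible because each region has 1 library and the labels give no replicate numbers, and no library could be left out for the same reason. The number of members depended on the thresholds and on joining transcripts. Against 34 members, 88 transcripts passed at 1.5-fold per step and 10 at 3-fold. Without a minimum in the duodenum 54 passed, with the highest exon in place of the whole transcript 66 passed, and 105 were counted when transcripts sharing an exon were not joined. A pseudocount of 1 RPKM left 16, and asking for a lower interval bound of 2-fold at each step left 19. The cause was not tested. The other alternatives, among them the 3 scalings and 1 member for each position, gave between 23 and 49.

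The median log2 ratio of the first step stayed between 2.34 and 2.64. That of the second step stayed between 1.29 and 1.497, except 0.96 with a pseudocount of 1 RPKM, against 1.38. Over the 68 log2 ratios of single members, 543 values under 8 alternatives gave 0 reversals of direction, and 426 lay within the interval of the reported value. Only the alternatives that change the exons used could have given a reversal. The 3 scalings changed levels too little to reverse a 2-fold step, and a pseudocount cannot reverse a ratio. With at least 1 RPKM in any region in place of 10 in the duodenum, 89 transcripts passed both steps against 45. Under each of the 3 other scalings, chosen for the gene lists after the values were seen, 1 enteroendocrine marker passed both steps against 0, and 1 lipid gene was at least 2-fold higher in the cecum against 2. Depth limits the second step, since 9 members had fewer than 30 reads in the colon.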
